A study of Mus musculus with 8 samples.

Results

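The genes described here encode proteins built into the nucleus, acrosome and tail of the spermatid, and their transcripts were measured in mouse epididymal fat on Affymetrix arrays. Probe sets were chosen by name: every probe set whose platform annotation gives Prm1, Prm2, Tnp1, Acr, Crisp2, Spa17, Odf1, Odf2, Smcp or Akap4 was taken. The names were proposed with earlier results of these data known. Counts of these genes beside shares over all probe sets are therefore a description, not independent support. That gave 11 probe sets for the 10 genes, of 13069 probe sets for 6137 named genes in all. Odf2 had 2 probe sets and each other gene 1. Chip A carries 8 of the 11 and chip B carries 3, those of Tnp1, Spa17 and Odf1. Fat of the epididymal pad was taken from 20 males aged 42 days in each of 4 lines, and the RNA of each line was pooled. As general background that the labels do not give, DU6 was selected for high body weight and DU6i was inbred from it. DUKs is the unselected control population of that selection, and DBA is a common inbred mouse. Each pool was hybridised to 1 chip A array and 1 chip B array, so no line has a replicate, and differences between animals within a line were not measured.

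Spermatids are the haploid cells that turn into sperm in the testis. Their histones are replaced first by transition proteins and then by protamines, an acrosome with proteases forms over the nucleus, and a tail is built from a microtubule core, outer dense fibres and a fibrous sheath. The genes for these parts are transcribed mainly in haploid germ cells, and many of the transcripts are stored before they are translated. Adipocytes are not known to make protamines, acrosomes or sperm tails. The epididymal fat pad lies against the epididymis, the duct that stores sperm, and close to the testis.

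The promoters of the genes are shown first, as reference sequence only. No sequence of the lines was examined, and a part of the promoters in the differences between lines was not tested. The promoter table of RefSeq (build GRCm38.p6) held 8 of the 10 genes, and Odf1 and Acr were not among them. The 150 bases directly before the start are given 5′ to 3′ for Prm1 and Prm2, the protamine genes, and for Tnp1 and Akap4 (its first listed start), which share a motif.
Tnp1 (chr1:73015900-73016049, minus strand): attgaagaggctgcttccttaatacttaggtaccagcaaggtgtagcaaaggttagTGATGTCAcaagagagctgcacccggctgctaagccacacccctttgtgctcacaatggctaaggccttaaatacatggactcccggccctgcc
Akap4 (chrX:7067365-7067514, plus strand): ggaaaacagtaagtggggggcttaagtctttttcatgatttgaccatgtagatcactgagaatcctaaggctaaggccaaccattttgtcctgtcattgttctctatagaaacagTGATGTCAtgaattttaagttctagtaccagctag
Prm2 (chr16:10792106-10792255, minus strand): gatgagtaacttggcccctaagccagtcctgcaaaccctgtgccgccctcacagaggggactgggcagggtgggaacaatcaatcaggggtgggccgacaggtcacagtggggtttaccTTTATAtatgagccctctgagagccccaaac
Prm1 (chr16:10796824-10796973, minus strand): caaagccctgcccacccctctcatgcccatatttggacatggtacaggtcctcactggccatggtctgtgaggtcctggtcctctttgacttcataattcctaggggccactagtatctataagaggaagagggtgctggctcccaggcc
Capitals mark TGATGTCA or TATAAA on either strand. Tnp1 held TGATGTCA with its first base at position -94, counted back from the start. Akap4 held it at position -35, and Smcp held it at position 25, after the start. This motif was picked after reading these sequences, so the 3 of 8 genes that hold it are a description, beside 3.62% of the 32851 promoters in the table. The 8 genes have 13 promoters there, and a gene was counted if any of its promoters held a motif. The percentages are shares of single promoters, so the measures are not alike. The string TATAAA, a sequence of the TATA box, occurred in Prm2 (position -31, on the reverse strand). It also occurred in Crisp2 (position -118 on the reverse strand and -97 on the forward strand), against 13.6% of all promoters. Matches on either strand at any position were counted, and variants of the string were not searched. Whether a match acts as a TATA box was not tested. TGACGTCA, the full cAMP response element, was in 0 of the 8 genes and in 1.79% of all promoters. Its first 5 bases alone, TGACG, which lie within the full element, were in Odf2 and in 20.8% of all promoters. Windows ran from 250 bases before to 50 after the start.

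Signals are the authors' scaled intensities, and ratios are taken only between arrays of the same chip for the same probe set. A floor was set for each chip from its negative signals, 1023 on chip A and 2258 on chip B, and ratios treat signals at or under it as not measured. A ratio against such a signal is given as a bound. Above the floor, with controls left out, were 3045 to 3334 probe sets per chip A array and 1639 to 1823 per chip B array. With controls, chip A carries 6584 probe sets and chip B 6595, the background for the counts of genes that follow. The label of the tissue was checked against genes of adipocytes: of 17 such genes with a probe set, 17 were above the floor in DU6, 16 in DU6i, 15 in DUKs and 16 in DBA. Among the 3 with the highest mean signal, Cd36, a fatty acid transporter, had 42621, 41487, 40202 and 32278 in that order of lines. Cidec, of the lipid droplet, had 58259, 37382, 63613 and 30590, and Dgat2, an enzyme of triglyceride synthesis, had 72761, 19303, 90083 and 35559. Of the 10 spermatid genes, 7 were above the floor in DU6, 6 in DU6i, 10 in DUKs and 10 in DBA, by the brighter probe set of Odf2. By their naming, all 11 probe sets are of the kinds that may also match related transcripts, so part of a signal may come from those.

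Prm1, 1 of the 2 protamines that pack the sperm nucleus, had signals of 8576 in DU6 and 8740 in DU6i, against 28545 in DUKs and 19113 in DBA. The DU6 and DU6i arrays were nearly alike and lay below the arrays of both other lines. Relative to DUKs, Prm1 was 3.33-fold lower in DU6, and relative to DBA it was 2.19-fold lower in DU6i. Prm2, the other protamine, had 7051 in DU6 and 9300 in DU6i, against 32957 in DUKs and 18640 in DBA. DU6 was 4.67-fold below DUKs, and the log2 ratio of DU6i over DBA was -1.003, at the 2-fold threshold. Tnp1, the transition protein that occupies the nucleus between histones and protamines, had 14689 in DU6 and 10822 in DU6i, against 47073 in DUKs and 20147 in DBA. All 3 chromatin genes were measured above the floor in all 4 pools, and their levels in DU6 and DU6i lay below those in DUKs and DBA without overlap, as did those of 13.3% of 5267 probe sets on both chips. Tnp1 was lower by 3.20-fold in DU6 (against DUKs) and by 1.86-fold in DU6i (against DBA). In bulk tissue, fewer cells of a type and less RNA per cell cannot be told apart.

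Of the acrosome group, Crisp2, a cysteine-rich secretory protein of the acrosome and the tail, was the only one above the floor in all 4 pools. Its signals were 2679 in DU6 and 1833 in DU6i, against 13877 in DUKs and 5367 in DBA. Crisp2 was lower by 5.18-fold in DU6 (against DUKs) and by 2.93-fold in DU6i (against DBA). Acr encodes acrosin, the serine protease of the acrosome, and was under the floor in DU6 (230) and DU6i (622) and above it in DUKs (3730) and DBA (1510). As bounds, DU6 was at least 3.65-fold below DUKs for Acr, and DU6i at least 1.48-fold below DBA. Spa17, a sperm surface and tail protein that binds the zona pellucida, is grouped here with the acrosome. It was under the floor in DU6 (1726) and DU6i (1290), against 9995 in DUKs and 5184 in DBA. Its bounds were at least 4.43-fold lower for DU6 against DUKs and at least 2.30-fold lower for DU6i against DBA. Crisp2 was lower in both DU6 lines than in both others (13.3% of all probe sets were). For Acr and Spa17 both DU6 lines were under the floor, so only lower was possible.

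Odf1, a main protein of the outer dense fibres, differed most between DU6i and DUKs, where DU6i was lower by at least 19.8-fold. Its signal was 9670 in DU6 and 1866, under the floor, in DU6i, against 44685 in DUKs and 14282 in DBA. DU6 was 4.62-fold below DUKs, and DU6i at least 6.32-fold below DBA. Smcp, a cysteine-rich protein of the mitochondrial capsule of the sperm midpiece, had 8597 in DU6 and 4207 in DU6i, against 25694 in DUKs and 12331 in DBA. Smcp was lower by 2.99-fold in DU6 (against DUKs) and by 2.93-fold in DU6i (against DBA), nearly the same factor. Akap4, the main protein of the fibrous sheath, had 501 in DU6 and 352 in DU6i, both under the floor, against 3574 in DUKs and 1066 in DBA. The DBA value lay just above the floor, so DU6 was at least 3.49-fold below DUKs while DU6i was at least 1.04-fold below DBA. The signals of Odf1 and Smcp in DU6 and DU6i lay below those of both other lines (13.3% of all probe sets did). For Akap4 both DU6 lines were under the floor, so only lower was possible.

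The probe sets of Odf2, an outer dense fibre protein that somatic cells also use at the centrosome, gave different results. Probe set af034105_s_at had 1625 in DU6 and 1508 in DU6i, against 12359 in DUKs and 5550 in DBA, the order of lines seen for the other genes. By this probe set DU6 was 7.61-fold below DUKs and DU6i 3.68-fold below DBA. Probe set aa254387_s_at had 6269 in DU6 and 4841 in DU6i, against 6019 in DUKs and 6082 in DBA, and its log2 ratios were 0.06 in DU6 over DUKs and -0.33 in DU6i over DBA. Between both probe sets the log2 ratio of DU6 over DUKs differed by 2.99, rank 2 among 346 genes with a pair of probe sets measured on both arrays. In DU6i over DBA the difference was 1.55, rank 1 of 348. Which Odf2 transcripts each probe set matches was not analysed here. Counts of genes below use the brighter probe set, aa254387_s_at, and so take Odf2 as not different.

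**Figure D1:**
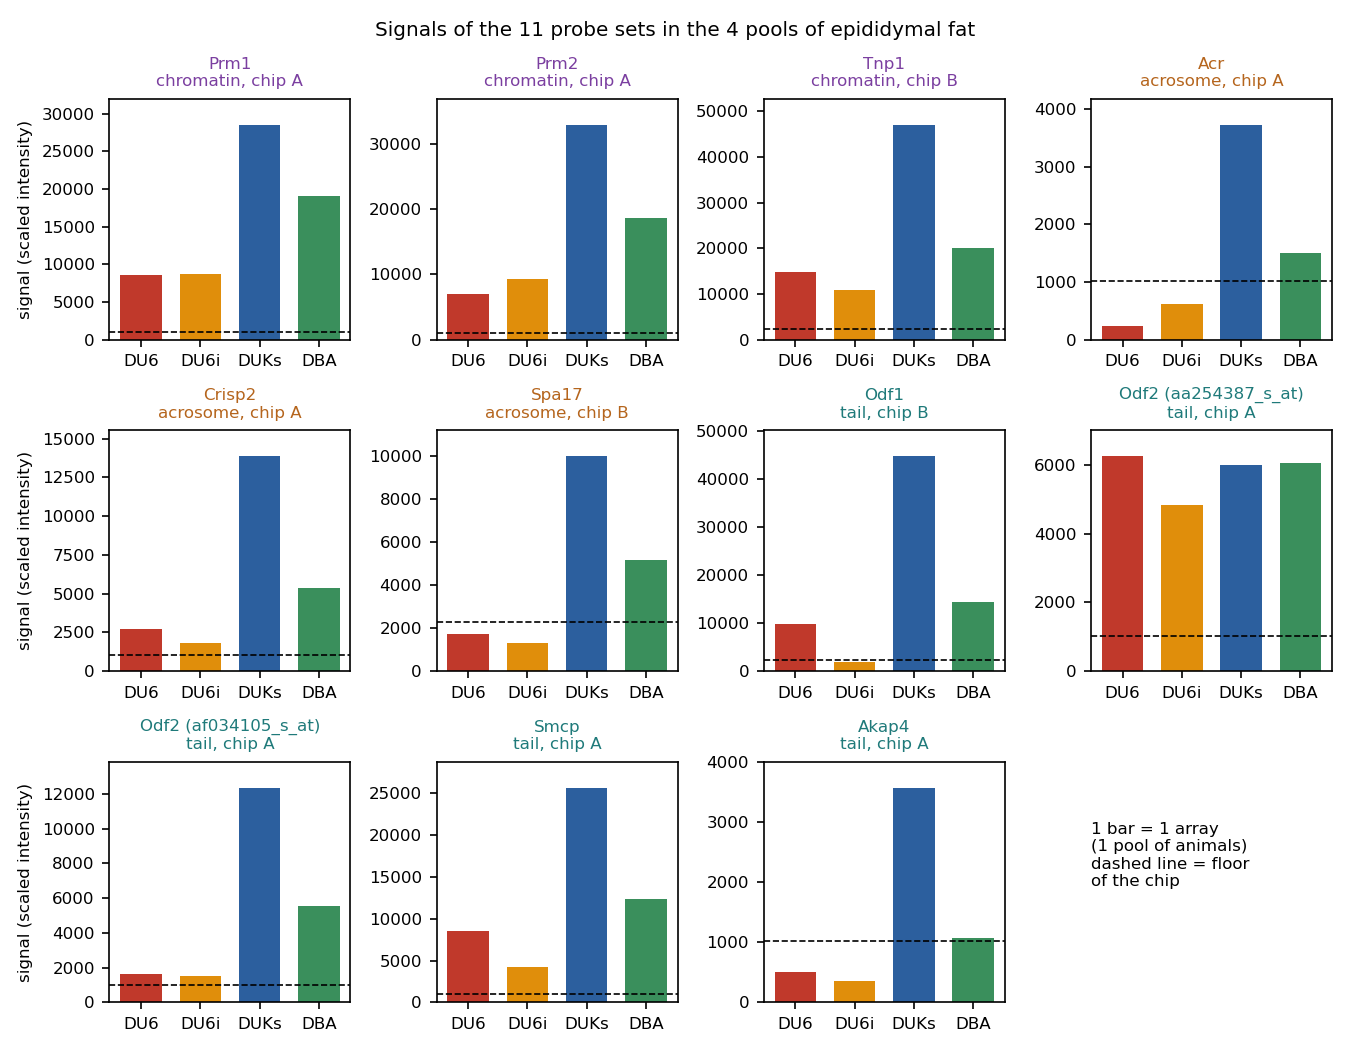
Signal (scaled intensity, linear axis from 0) of each of the 11 probe sets in DU6, DU6i, DUKs and DBA. Each bar is 1 array of 1 pool, and the dashed line is the floor of the chip (1023 for A, 2258 for B). DUKs has the tallest bar and DBA the second in 10 of the 11 panels, the exception being the aa254387_s_at probe set of Odf2.

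Across the group the same order of lines recurred. In 10 of 11 probe sets DUKs was highest, DBA second and both DU6 lines lowest, with DU6 above DU6i in 7 and DU6i above DU6 in 3. Those 3 were Prm1, Prm2 and Acr, but for Acr, Spa17 and Akap4 both DU6 lines were under the floor and have no order between them. A pair of pools allows no test, so differences are described by a rule of size, 2-fold or more. In DU6 against DUKs, 9 of the 10 genes were lower at 2-fold or more, where 6.3% of all 5604 measured probe sets were. Their median log2 ratio was -1.84, with bounds taken at their value, and that of all probe sets was 0.05. For Acr, Spa17 and Akap4, which were under the floor in DU6, only lower was possible. In DU6i against DBA, 6 of 10 were lower at 2-fold or more, against 6.68% of 5556 probe sets, with medians of -1.07 and -0.03. These pairs share no array. The genes short of 2-fold in DU6i against DBA were Tnp1, Acr, Odf2 and Akap4, of which Acr and Akap4 are bounds. The spread of a single log2 ratio, taken from genes with a pair of probe sets, was 0.44 (SD, 346 genes) in DU6 over DUKs and 0.34 (348 genes) in DU6i over DBA. It reflects disagreement among probe sets on the same arrays, and animals or pools may differ by more.

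The lines on each side of this order also differed. DUKs had more than DBA in 9 of 10 genes, at 2-fold or more in 6, where 6.01% of 5691 probe sets were, and the median log2 ratio was 1.14 against -0.01 for all. By structure, the log2 ratio of DUKs over DBA ran from 0.58 for Prm1 to 1.22 for Tnp1 among the chromatin genes and from 0.95 to 1.37 among the acrosome genes. Among the tail genes it was 1.65 for Odf1, 1.06 for Smcp and 1.75 for Akap4, and -0.02 for Odf2. The SD of a single ratio was 0.41 in this pair (350 genes). In DU6i against DU6, 7 genes were measured, and 2 were lower at 2-fold or more, against 4.8% of 5478 probe sets. These were Odf1, at least 4.28-fold lower, and Smcp, 2.04-fold lower, which falls short of 2-fold under 3 other settings. Prm1 and Prm2 had log2 ratios of 0.03 and 0.40 there, and the SD of a single ratio was 0.46 (339 genes). That SD is for a single ratio and does not measure a difference between 2 ratios. Odf1 is a bound on chip B and the protamines are on chip A, so their difference in this ratio was not tested. These pairs share arrays with those given before, and their values stand side by side only.

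**Figure D2:**
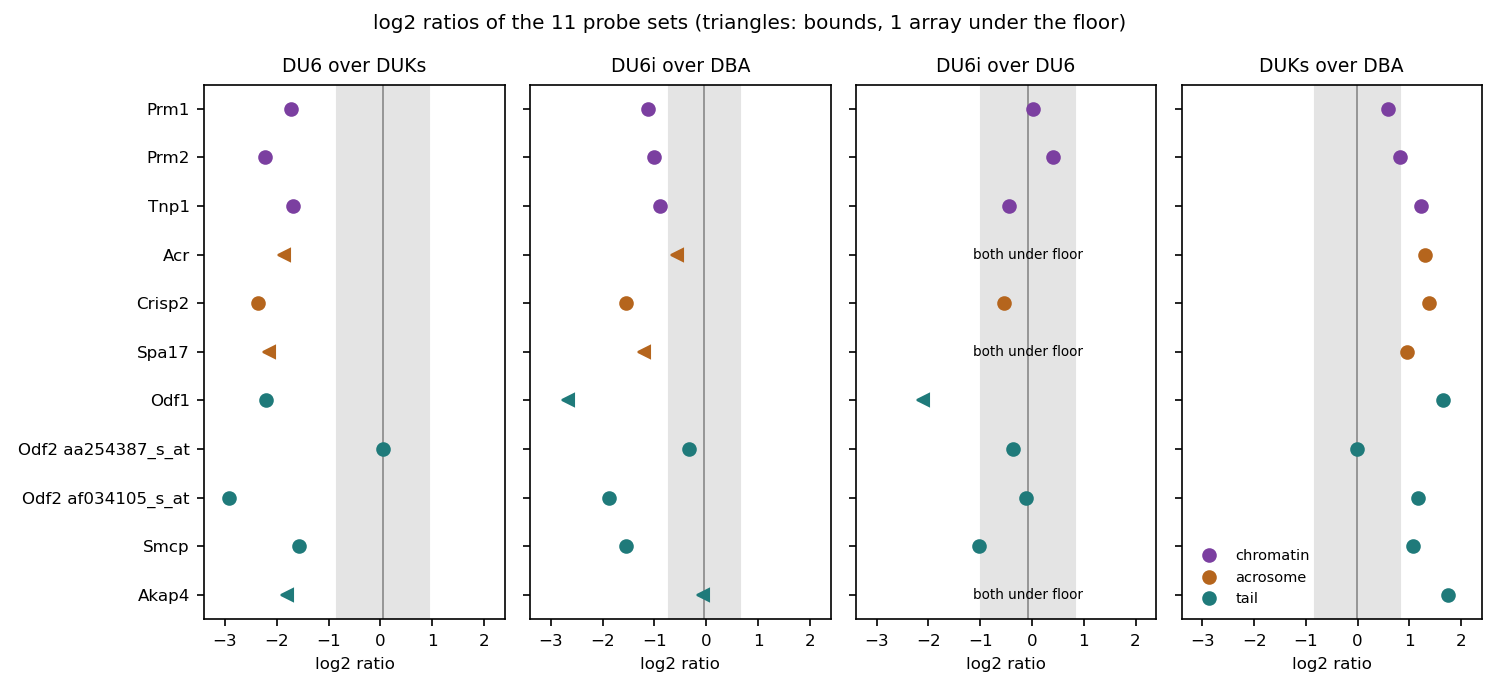
log2 ratio (x axis) of each probe set (rows, ordered by chromatin, acrosome and tail) in 4 pairs of lines. Circles are measured ratios, triangles are bounds with 1 array under the floor, the grey line is the median of all probe sets and the grey band 2 SDs of a single ratio to each side. In DU6 over DUKs 10 of the 11 symbols lie left of the band.

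The pools differed in control transcripts of the chips. For pyruvate carboxylase, the signal of the middle probe set was 15.3% of that at the 3′ end in DU6, 54.5% in DU6i, 53.9% in DUKs and 19.5% in DBA on chip A. The chip B arrays of these lines gave 12.7%, 45.3%, 55.6% and 14.3%. The pairs DU6 with DUKs and DU6i with DBA each join a low line and a high one. For actin, the ratio of the 3′ to the 5′ signal was 2.12, 2.46, 1.73 and 2.33 on chip A and 2.75, 1.72, 1.66 and 1.90 on chip B, lowest in DUKs on both. Values for the pairs alike in pyruvate carboxylase were as follows. In DU6i against DUKs 10 of 10 genes were lower, 9 at 2-fold or more (6.76% of all 5579 probe sets), with a median log2 ratio of -1.99. In DU6 against DBA 9 of 10 were lower, 4 at 2-fold or more (4.17% of 5491), with a median of -0.56. In both, genes under the floor in the DU6 line could only come out lower. DU6i and DUKs were not alike in the actin ratio on chip A, nor were DU6 and DBA on chip B (2.75 and 1.90). The part of these controls in the results was not tested.

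A test across lines is possible between both DU6 lines and the other lines, the sides that the title of the series names. In 10 of the 11 probe sets both DU6 lines lay below both other lines with no overlap, which was the case for 13.3% of the 5267 probe sets tested. Acr, Spa17 and Akap4 entered the test through DUKs and DBA alone, so their direction was fixed. By limma with Benjamini-Hochberg adjustment, 0% of the 5267 probe sets (0) came under an adjusted p of 0.05, so none of the 11 did. At an unadjusted p under 0.05 there were 252 probe sets (4.78%), 9 of the 11 among them. Of these 9, Acr and Spa17 had both DU6 values set to the floor, which leaves no spread on that side. The af034105_s_at probe set of Odf2 had a log2 difference of -2.40 (SE 0.42, 2 lines per side, lower in both DU6 lines) and limma's adjusted p was 0.829, the smallest of the group. Odf1 differed by -2.43 (SE 0.87) and Crisp2 by -1.96 (SE 0.50). With DU6 left out, DU6i stood alone on its side and was assumed to vary like the other lines. The log2 difference was then -3.48 for Odf1, whose DU6i value was set to the floor, and -2.46 for af034105_s_at of Odf2. DU6, the line left out, had the higher Odf1 signal of both DU6 lines. Fits with a single line on a side are described by size only. The smallest p that exact permutation of 2 lines on each side allows is 0.333. The lines are also not independent, DU6i having been bred from DU6.

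Other genes of spermatids were examined from a list of 55 genes of the haploid programme, of which 15 had a probe set. Gapdhs, Dnajb3 and Hspa4l were above the floor in all 4 pools. Gapdhs, the sperm form of glyceraldehyde phosphate dehydrogenase that is bound to the fibrous sheath, had 1833 in DU6 and 1741 in DU6i, against 8690 in DUKs and 3625 in DBA. Dnajb3, a co-chaperone of the testis, had 2833 in DU6 and 6005 in DU6i, against 40844 in DUKs and 10142 in DBA. Hspa4l, a heat shock protein abundant in testis, had 1388 in DU6 and 1377 in DU6i, against 11011 in DUKs and 2822 in DBA. All 3 were lower at 2-fold or more in DU6 than in DUKs, by 4.74-fold, 14.4-fold and 7.93-fold, where 6.3% of all probe sets were. In DU6i against DBA, Gapdhs was 2.08-fold and Hspa4l 2.05-fold lower and Dnajb3 1.69-fold lower, and 6.68% of all probe sets were lower at 2-fold or more. Another 9 genes were above the floor in DUKs but under it in DU6, so for these only lower was possible. Among them Adam3, a sperm membrane protein needed for binding the egg, had 1184 in DU6 and 627 in DU6i, against 10187 in DUKs and 3599 in DBA. Meig1, which is needed for spermatid differentiation, had 2076 in DU6 and 1845 in DU6i, against 10090 in DUKs and 3408 in DBA. Adam2 and Adam5 were likewise above the floor in DUKs and DBA, and Acrv1, Zpbp, Tssk1, Capza3 and Hspa1l in DUKs alone. Acrbp, Spam1 and Crem were under the floor on all 4 arrays.

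Genes of earlier germ cells were measured in part. Of 13 spermatocyte genes with a probe set, Ldhc, the lactate dehydrogenase of germ cells, was the one above the floor in all 4 pools. Ldhc had 3450 in DU6 and 2604 in DU6i, against 23076 in DUKs and 10134 in DBA. Pgk2, the phosphoglycerate kinase of germ cells, had 1262 in DU6 and 857, under the floor, in DU6i, against 6180 in DUKs and 1869 in DBA. Clgn was above the floor in DUKs and DBA, and Hspa2, Pdha2 and Ccna1 in DUKs alone. Nek2 and Sycp3 were not lower in DU6i than in DBA. Nek2, a kinase of the centrosome, had 1081, under the floor, in DU6 and 2628 in DU6i, against 7456 in DUKs and 2353 in DBA. Sycp3, of the synaptonemal complex, was above the floor in DU6i alone, at 2592. The median log2 ratio of the 5 genes measured in DU6i over DBA was -0.44, with 3 lower and 2 higher, and 1 of them, Ldhc, was lower at 2-fold or more. Sycp1, Dmc1, H1f6, Mns1 and Zfp37 were under the floor in all lines, by the probe set of highest mean of each gene. Of 6 spermatogonium genes with a probe set, Stra8, Dazl, Zbtb16 and Gfra1 were under the floor in all lines. Ddx4, an RNA helicase of germ cells, was above it in DUKs alone, at 7198. Kit, a receptor that other cells also carry, was under it in DU6 (1831) and above it in DU6i (2295), against 1875, under the floor, in DUKs and 4394 in DBA.

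Markers of the other cells of the testis were mostly not measured. Summed signals below add, over both chips, the probe set of highest mean of each gene of a list. Signals under the floor were taken as they stand and those below 0 as 0. Such sums are weighted to the brightest genes. Of 9 Sertoli cell genes with a probe set, Amh, Inha, Rhox5, Dhh, Gata4, Gata1 and Aard were under the floor in all lines. Wt1 was above it in all 4 lines and Inhbb in all but DUKs, genes that other tissues also express, and the summed signal of the 9 was 13484 in DU6, 10847 in DU6i, 10805 in DUKs and 15193 in DBA. Of 5 Leydig cell genes, Cyp11a1, Star and Hsd17b3 were under the floor in all lines. Cyp17a1 and Hsd3b1, both enzymes of steroid synthesis, had 1117 and 842 in DU6 and 554 and 598 in DU6i, against 2788 and 2793 in DUKs and 764 and 457 in DBA. Of these values, both of DUKs and the Cyp17a1 value of DU6 were above the floor. The summed Leydig signal was 2205, 1665, 6375 and 1919 in the 4 lines.

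Of 5 genes of the epididymis, the summed signal was 132071 in DU6, 29620 in DU6i, 133008 in DUKs and 100020 in DBA. Gpx5, the secreted glutathione peroxidase of the epididymis, had 49126 in DU6, below 0 in DU6i, 52044 in DUKs and 20753 in DBA. Adam7 had 19574 in DU6 and 5914 in DU6i, against 23896 in DUKs and 21665 in DBA, and Lcn2 had 48487 and 6788, against 29578 and 36012. Cd52, which lymphocytes also carry, had 13215 in DU6 and 16618 in DU6i, against 26610 in DUKs and 15871 in DBA. In DU6 against DUKs, Cd52 was 2.01-fold lower and the log2 ratios of Gpx5, Adam7 and Lcn2 were -0.08, -0.29 and 0.71. Ros1, by the probe set of highest mean among its 3, was under the floor everywhere except in DBA, where it had 5719. Of 7 genes of the accessory glands, Svs2, Svs4, Svs5 and Svs6 of the seminal vesicle were above the floor in DBA alone, and Sbp and Spink1 in DUKs alone. The summed signal of the 7 was 1023 in DU6, 2354 in DU6i, 27628 in DUKs and 108358 in DBA, with no gene above the floor in DU6 or DU6i.

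Signals of the adipocyte genes also differed between the lines. The summed signal of 17 of them was 337751 in DU6, 469734 in DU6i, 440772 in DUKs and 299898 in DBA. The median log2 ratio was -0.32 in DU6 over DUKs and 0.86 in DU6i over DBA. Lpl, Lipe and Retn (lipoprotein lipase, hormone-sensitive lipase and the hormone resistin) were 2.73-fold, 2.04-fold and 2.08-fold lower in DU6 than in DUKs. Lep, the hormone leptin, was 7.24-fold higher in DU6i than in DBA, and Cebpa, a transcription factor of adipocytes, 2.14-fold higher. Adig, a small protein of adipocytes, had 8680 in DU6 and 4730 in DU6i, against 288, under the floor, in DUKs and 10986 in DBA. The part of these tissues, and of the fat itself, in the differences of the spermatid genes was not tested.

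**Figure D3:**
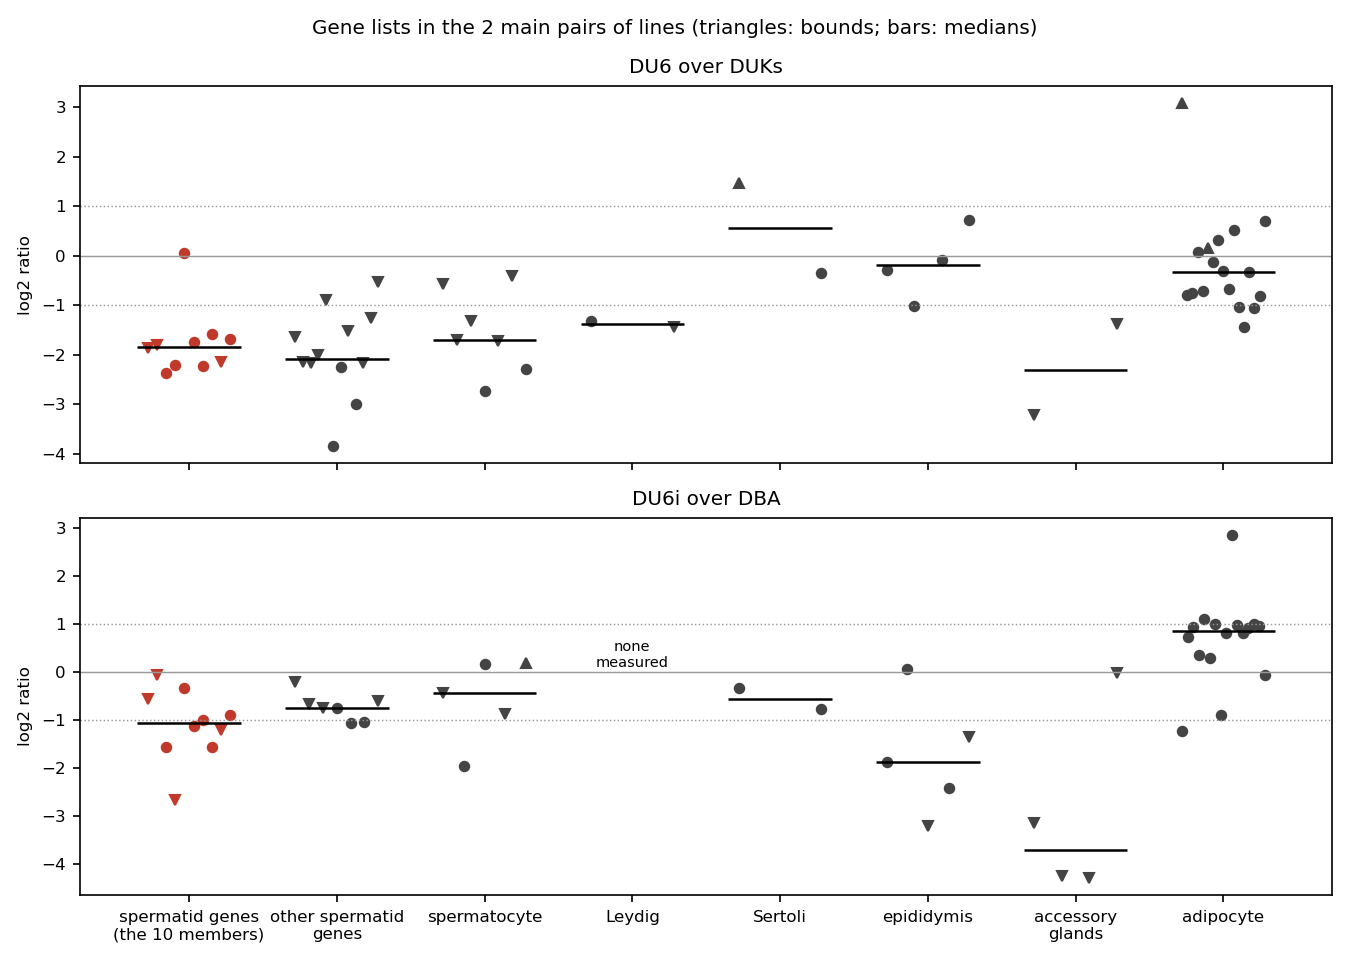
log2 ratio (y axis) of each measured gene of 8 lists in DU6 over DUKs (upper panel) and DU6i over DBA (lower panel). Red symbols are the 10 genes described here, circles are measured ratios, triangles are bounds, bars are medians and dotted lines mark 2-fold. The medians of the 10 genes are -1.84 and -1.07, and those of the adipocyte genes -0.32 and 0.86.

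Likeness of pattern was measured over the 4 lines as the root mean square distance, in log2 units, between a probe set's centred profile and the mean profile of the 7 spermatid probe sets above the floor in all pools. That mean profile was -0.59 in DU6, -0.89 in DU6i, 1.19 in DUKs and 0.30 in DBA, and a flat profile lies 0.81 from it. Of 2996 other named probe sets, the nearest was that of Pias2, a SUMO ligase, at a distance of 0.15, followed by Gapdhs (0.18), the mitochondrial glycerol phosphate dehydrogenase Gpd2 (0.20) and the histone chaperone Nasp (0.21). Abhd8, Gtf2f1, Utp18, Gstm5, Rnaseh2a and Tnfrsf9 came next, at 0.24 to 0.28. Pias2 had signals of 1848 in DU6 and 1670 in DU6i, against 5971 in DUKs and 2887 in DBA. The spermatid probe sets themselves lay at 0.16 (Prm1 and Tnp1) to 0.47 (af034105_s_at of Odf2), and the aa254387_s_at probe set of Odf2 at 0.75. Each of them is part of the mean profile, so these distances are not comparable with those of other genes. With 4 points per profile, near neighbours among so many probe sets are a description of these arrays only.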

How the data were processed

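Epididymal fat of 4 lines was measured on 8 arrays, 1 of chip A and 1 of chip B per pool, and arrays were assigned to lines by their titles. The deposited intensity values are linear and were made by the authors with Microarray Suite (version 4.0.1), with Data Mining Tool (version 1.2) also named, per the labels. The trimmed mean of each array (percentiles 2 to 98) was 2500 in the deposited values. Gene names came from the platform annotation, updated by a RefSeq table. Chip A had 5560 probe sets with 1 symbol, 197 with several and 827 with none, and chip B had 2001, 27 and 4567. Comparisons left out 110 control probe sets.

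Each chip's floor was taken from the sizes of its negative signals, at percentile 95. Signals were raised to the floor and log2-transformed, and a ratio needed 1 array above it. A gene with several probe sets was represented by the one of highest mean. Statements that a list gene was under the floor refer to that probe set alone. limma 3.58.1 (R 4.3.3, lmFit and eBayes per chip, adjustment over both) required 2 arrays above the floor, and its code was tested on simulated data. Other values were computed with Python 3.11.15. The text names all 10 members, list genes that reach 2-fold (bounds included) between DU6 and DUKs or between DU6i and DBA, the 3 brightest genes of a marker list, and the 10 nearest profiles. Markers under the floor are named in addition, and Sycp3, Zpbp, Capza3, Pdha2, Ccna1 and Svs6 were named after their values were seen. The members and lists were chosen with earlier results of these data known. Alternatives covered the scaling, the floor, the log scale, the probe set rule, the filter, the prior variance and each line left out. The limited number of arrays sets the precision.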

Additional observations from a re-analysis of the deposited data

Results flagged for a closer look

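Adig, a small protein of adipocytes, lay past 2-fold in opposite directions in the 2 pairs of lines that share no array. Its log2 ratio was 3.09 in DU6 over DUKs, a bound since its DUKs signal was under the floor, and -1.22 in DU6i over DBA. The difference between the pairs was not tested.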

How the results depend on the processing

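Quantile normalisation, scaling to the 75th percentile, a floor halved or doubled, log2 of the signal plus the floor and a mean over the probe sets of a gene were tried. The count of genes lower at 2-fold or more stayed between 7 and 10 in DU6 against DUKs (medians -2.22 to -1.62) and between 4 and 8 in DU6i against DBA (medians -1.20 to -0.95). In DUKs against DBA 4 to 6 genes were higher (medians 0.91 to 1.17). In DU6i against DU6 the count was 1 instead of 2 under quantile normalisation, scaling to the 75th percentile and log2 of the signal plus the floor, each of which brings Smcp under 2-fold. Of 220 single ratios recomputed, 22 moved by more than the SD of a single ratio, 198 moved by less and 0 reversed a call. With the mean of its probe sets, Odf2 had a log2 ratio of -1.43 in DU6 over DUKs. Under the doubled floor the bounds of Acr and Akap4 were -0.87 and -0.81 there, since a bound falls with the floor. limma passed 4 probe sets with no filter on low signals, and the cause was not tested; with each line left out in turn it passed 0 to 17. A restriction to probe sets without a suffix letter was not run, since by their names it would leave none of the 11. No paired analysis was possible because each line had 1 pool on each chip. With 1 pool per line, the number of arrays limits the precision, and signals near the floor give bounds only.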
